A study of Mus musculus with 6 samples.

Results

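The alpha-1 subunit of a voltage-gated calcium channel is the protein that forms the pore and senses the membrane potential. The 8 genes described here are *Cacna1a*, *Cacna1b*, *Cacna1c*, *Cacna1d*, *Cacna1e*, *Cacna1g*, *Cacna1h* and *Cacna1i*. They were found by gene symbol among the 16640 genes that have an estimated count in every library, and all 8 were among the 12516 genes left after a filter on low counts. The family was chosen by values of these same libraries, namely the counts compared between conditions and between replicate 3 and replicates 1 and 2. Both differences are therefore given as a description, without a p-value for the 8 genes. Where genes called in a fit over all genes are counted, nothing is read from the count of the 8.

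MIN6 cells are mouse β-cells that were established from an insulinoma. In the control line, dCas9 was paired with a non-targeting sgRNA, and in the *Thada*-activated line with an sgRNA at the *Thada* promoter, where it recruits transcriptional activators (the SAM system). Both lines were made with lentiviruses. The *Thada*-activated line was selected with puromycin and G418, and selection of the control line is not given in the sources used here. Each condition is 1 line, so a difference between lines cannot be told apart from the effect of *Thada*. RNA was sequenced in 3 libraries per condition, each of which held between 17166511 and 17727004 counts. The study reports in general that its cell experiments were repeated independently, but the labels do not say whether these replicates were separate cultures, so a p-value here measures the spread between libraries, which may be technical.

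Voltage-gated calcium channels open when the membrane depolarizes. In β-cells, closure of ATP-sensitive potassium channels by glucose depolarizes the cell, and the calcium that enters triggers exocytosis of insulin granules. L-, P/Q-, N- and R-type channels open at strong depolarization, whereas T-type channels open near the resting potential and close quickly.

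*Thada* (gene 240174) held 479, 497 and 300 counts in control replicates 1, 2 and 3, and 1018, 977 and 864 in the *Thada*-activated replicates. The libraries of the conditions did not overlap, and each *Thada*-activated library was the higher of its replicate number, so the targeted gene matched the labels in 6 of 6 libraries. Its log2 fold change was 1.13 (standard error 0.22) without the replicate number in the model and 1.15 (standard error 0.10) with it as a block, with adjusted p = 1.00 and adjusted p = 0.00041 by the quasi-likelihood test of edgeR. Over all alternatives its adjusted p ranged from 1.4e-22 to 1.00 and its log2 fold change from 0.93 to 1.26.

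Replicate 3 differed from replicates 1 and 2 in both conditions. Across the 12516 tested genes, Pearson's r of log2(CPM + 0.5) was 0.991 between both replicate 3 libraries, from 0.994 to 0.997 among the replicate 1 and 2 libraries, and from 0.949 to 0.957 between replicate 3 and any of those. Genes are not independent replicates, and these values describe the libraries. CPM scales the counts of a gene to the same total in every library. In bulk samples, fewer cells of a type and less RNA per cell cannot be told apart.

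The β-cell label was compared with marker genes. The 12 β-cell markers summed to 107836, 98097 and 129760 CPM in control replicates 1, 2 and 3, and to 103536, 101376 and 117239 CPM in the *Thada*-activated replicates. *Ins2*, an insulin gene, held the most counts of them, at 63688, 56481 and 101539 CPM in control and 64413, 62916 and 83614 CPM in *Thada*-activated replicates. *Slc2a2*, the glucose transporter of mouse β-cells, had only 1 to 9 counts and did not pass the filter, so this defining marker was near the floor of 3 counts.

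Markers of other cells were lower in sum. Those of other islet endocrine cells summed to between 114 and 200 CPM. *Sst*, the somatostatin gene, was the highest of them in each library, but in *Thada*-activated replicate 3 it held 59.2 of 122 CPM, with *Ppy* at 39.8 CPM. The 2 exocrine markers with a row in the table summed to between 0.339 and 2.37 CPM, and *Krt19* held most of that, with *Ctrb1* at 0 or 1 counts. *Krt19* differed between conditions, with 9, 9 and 6 counts in control and 42, 26 and 18 in *Thada*-activated replicates (log2 fold change 1.79, standard error 0.42), and was not called with or without the block. The 5 markers of stroma, endothelium and blood with a row summed to between 2.21 and 5.46 CPM. *Col1a1* was the highest of them except in *Thada*-activated replicate 1, where *Cd68* was above it, and *Cdh5* was at 0 or 1 counts.

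Among the alpha-1 genes, *Cacna1d* and *Cacna1c* had the highest FPKM in replicates 1 and 2. Levels of different genes were compared as FPKM, which scales a gene's reads by its length and the library. The order thus depends on the length used. Annotated exons of *Cacna1c* sum to 21191 bases, against 13.3 to 13.5 kb behind its FPKM, and those of *Cacna1b* to 9942 bases, against 8.74 to 9.36 kb. Per annotated exon base, *Cacna1b* was above *Cacna1c* in control replicates 1 and 2 and *Thada*-activated replicate 1, but not in *Thada*-activated replicate 2. In control replicates 1 and 2 and in *Thada*-activated replicates 1 and 2, the order of FPKM was the same: *Cacna1d*, *Cacna1c*, *Cacna1b*, *Cacna1h*, *Cacna1g*, *Cacna1a*, *Cacna1i* and *Cacna1e*. In control replicate 3 the order began with *Cacna1c*, *Cacna1h* and *Cacna1d*, and in *Thada*-activated replicate 3 with *Cacna1h* and *Cacna1c*, followed by *Cacna1g* and *Cacna1d* at the same 4.43 FPKM. In control cells the mean levels were 6.84 ± 2.97 FPKM (SD, n = 3) for *Cacna1d*, 4.92 ± 0.88 for *Cacna1c*, 3.55 ± 0.98 for *Cacna1b*, 2.40 ± 1.15 for *Cacna1h*, 1.83 ± 0.74 for *Cacna1g*, 0.79 ± 0.06 for *Cacna1a*, 0.46 ± 0.21 for *Cacna1i* and 0.42 ± 0.14 for *Cacna1e*. Neighbours in this order did not differ beyond their SD, except *Cacna1c* and *Cacna1b*, *Cacna1g* and *Cacna1a*, and *Cacna1a* and *Cacna1i*. The genes share libraries, so this SD is not the spread of their difference within a library. *Cacna1h* was above *Cacna1g* in every library. In *Thada*-activated cells the means were 7.25 ± 2.45 FPKM (SD, n = 3) for *Cacna1d*, 5.66 ± 0.70 for *Cacna1c*, 3.86 ± 1.73 for *Cacna1h*, 3.76 ± 0.72 for *Cacna1b* and 2.53 ± 1.65 for *Cacna1g*, with *Cacna1a*, *Cacna1i* and *Cacna1e* under 1 FPKM.

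**Figure D1:**
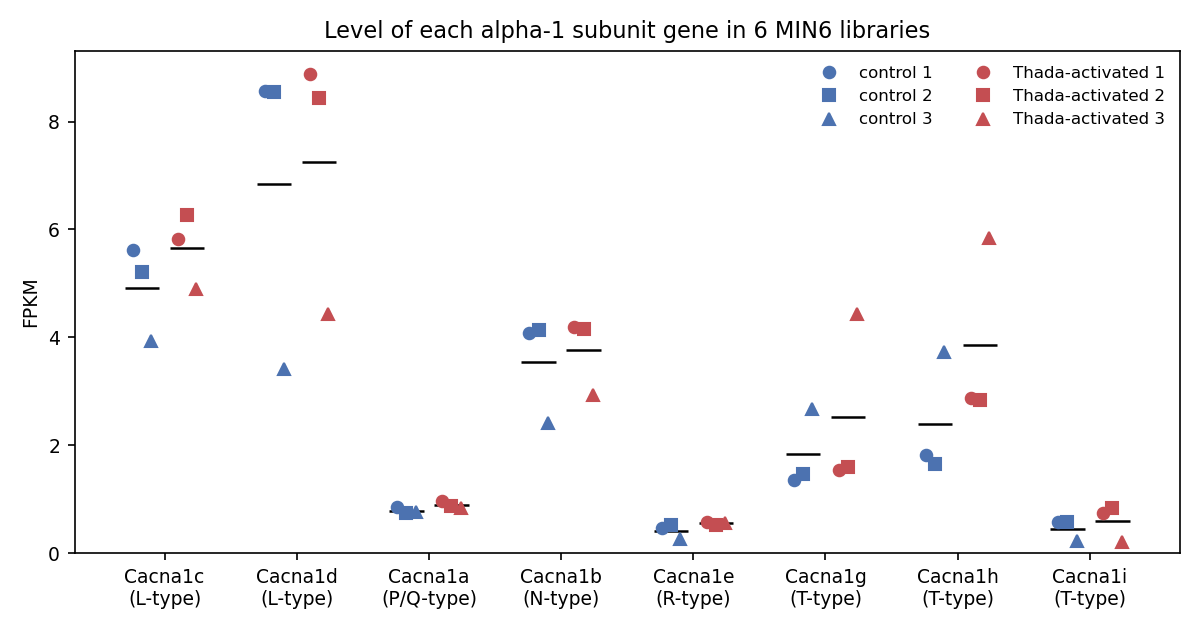
Level of each alpha-1 subunit gene in FPKM, with 1 point per library (shape, replicate number; colour, condition) and a line at the mean of 3 libraries. *Cacna1d* was between 8.43 and 8.88 FPKM in replicates 1 and 2 and at 3.42 and 4.43 FPKM in replicate 3, while *Cacna1h* and *Cacna1g* were highest in replicate 3.

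The genes lie on 8 chromosomes of GRCm38, with positions from GENCODE M21. *Cacna1c* (gene 12288) spans chr6:118587240-119196418 and *Cacna1d* (gene 12289) spans chr14:30039939-30491455, both on the minus strand. *Cacna1a* (gene 12286) spans chr8:84388440-84640246 on the plus strand, *Cacna1b* (gene 12287) chr2:24603887-24763152 on the minus strand and *Cacna1e* (gene 12290) chr1:154390731-154884501 on the minus strand. Of the T-type genes, *Cacna1g* (gene 12291) spans chr11:94408391-94474198 and *Cacna1h* (gene 58226) chr17:25374285-25433783 on the minus strand, and *Cacna1i* (gene 239556) chr15:80287238-80398279 on the plus strand. *Cacna1h* shares chromosome 17 with *Thada*, at a distance of 58.8 Mb. Exons of *Chdh* overlap those of *Cacna1d* by up to 589 bases and exons of *Tpsg1* overlap those of *Cacna1h* by up to 158 bases, both on the opposite strand. Whether the counting used the strand is not given in the sources used here, but *Chdh* held at most 4 counts and *Tpsg1* at most 2 in any library. Exons of *Gm16183* overlap those of *Cacna1a* by up to 227 bases, also on the opposite strand. This gene had no row among the deposited counts, so no bound on its counts is given.

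The share of each channel type was taken as its FPKM over the FPKM of all 8 genes. L-type genes (*Cacna1c* and *Cacna1d*) made up 60.8% and 60.2% of the summed FPKM in control replicates 1 and 2 and 42.2% in replicate 3, and 57.4%, 57.5% and 38.6% in the *Thada*-activated replicates. T-type genes (*Cacna1g*, *Cacna1h* and *Cacna1i*) made up 16.0%, 16.2% and 38.0% in control replicates 1, 2 and 3, and 20.2%, 20.7% and 43.4% in the *Thada*-activated replicates. In replicates 1 and 2 the L-type share was thus the highest of the 5 types, while in *Thada*-activated replicate 3 the T-type share was above it. The N-type gene *Cacna1b* held 17.5%, 18.1% and 13.9% of the FPKM in control and 16.4%, 16.3% and 12.1% in *Thada*-activated replicates.

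The remaining types were small in all 6 libraries. The P/Q-type gene *Cacna1a* held between 3.23% and 4.42% of the summed FPKM, and the R-type gene *Cacna1e* between 1.49% and 2.32%. Means over 3 libraries were 54.4% ± 10.6 (SD, n = 3) L-type, 3.78% ± 0.60 P/Q-type, 16.5% ± 2.27 N-type, 1.94% ± 0.42 R-type and 23.4% ± 12.7 T-type in control cells. In *Thada*-activated cells they were 51.2% ± 10.9 (SD, n = 3) L-type, 3.57% ± 0.19 P/Q-type, 14.9% ± 2.42 N-type, 2.21% ± 0.12 R-type and 28.1% ± 13.3 T-type. The difference between the means was within the SD of either condition for the L-, N- and T-type shares. For the P/Q- and R-type shares it was within the control SD and above the *Thada*-activated SD. Replicate 3 set most of the spread of the L- and T-type shares.

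**Figure D2:**
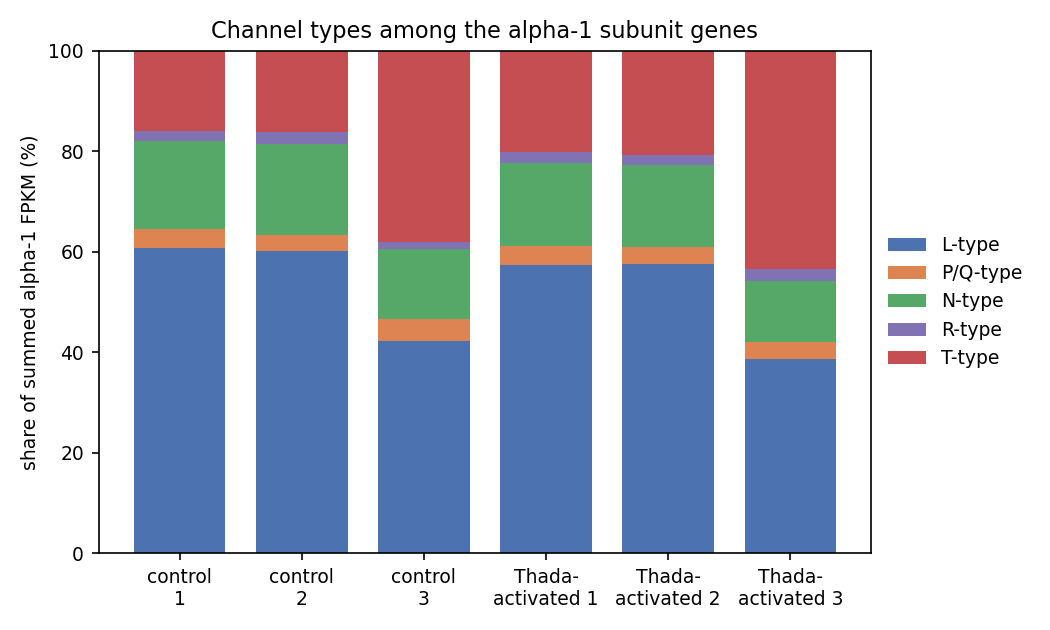
Share of each channel type in the summed FPKM of the 8 alpha-1 subunit genes, with 1 stacked bar per library. The T-type share is between 16.0% and 20.7% in replicates 1 and 2 and at 38.0% and 43.4% in replicate 3, where the L-type share is at 42.2% and 38.6%.

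Within each replicate number, the T-type share of FPKM was higher in the *Thada*-activated library, by 4.16, 4.47 and 5.40 percentage points in replicates 1, 2 and 3. The L-type share of FPKM was lower by the same comparison, with *Thada*-activated minus control differences of -3.34, -2.64 and -3.54 points, and the N-type share differed by -1.13, -1.80 and -1.75 points. The P/Q-type (0.10, 0.21 and -0.94 points) and R-type (0.21, -0.24 and 0.83 points) shares did not differ in 1 direction. Shares sum to a whole, so a higher share of a type lowers the others. In levels, the summed T-type FPKM was 3.74, 3.71 and 6.63 in control and 5.17, 5.28 and 10.5 in *Thada*-activated replicates, whereas the summed L-type FPKM was 14.2, 13.8 and 7.35 in control and 14.7, 14.7 and 9.33 in *Thada*-activated replicates. Within a replicate number both sums were higher in the *Thada*-activated library.

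Shares of counts without correction for length were also taken. By these, T-type genes took 532 of 4044 counts of the 8 genes in control replicate 1 (13.2%, Wilson 95% interval 12.1% to 14.2%) and 927 of 2949 in control replicate 3 (31.4%, 29.8% to 33.1%). In *Thada*-activated cells they took 744 of 4466 counts in replicate 1 (16.7%, Wilson 95% interval 15.6% to 17.8%) and 1437 of 3956 in replicate 3 (36.3%, 34.8% to 37.8%). Such intervals cover counting error only and not the spread between libraries, and nothing is read from them since the split was known when the genes were chosen.

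Of the L-type genes, *Cacna1c* held 1299, 1192 and 938 counts in control replicates 1, 2 and 3, and 1372, 1463 and 1137 in *Thada*-activated replicates. The replicate 3 library was the lowest of each condition, and the conditions overlapped because *Thada*-activated replicate 3 was below control replicates 1 and 2. The log2 fold change between conditions (*Thada*-activated over control) was 0.18 (standard error 0.17), and the *Thada*-activated library was 1.03, 1.21 and 1.24 times the control library in CPM in replicates 1, 2 and 3.

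*Cacna1d*, which encodes the other L-type pore of β-cells, held 1317, 1295 and 535 counts in control and 1388, 1301 and 683 in *Thada*-activated replicates. Counts in replicate 3 were the lowest in both conditions, and those of replicates 1 and 2 were close to each other across conditions. Between conditions its log2 fold change was 0.07 (standard error 0.43), and 0.01 (standard error 0.06) in replicates 1 and 2 alone. *Cacna1d* made up 60.4% and 62.1% of the L-type FPKM in control replicates 1 and 2 and 46.5% in replicate 3, and 60.4%, 57.4% and 47.5% in *Thada*-activated replicates. *Cacna1c* was thus the L-type gene with the higher FPKM in both replicate 3 libraries.

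The genes *Cacna1f* (gene 54652) and *Cacna1s* (gene 12292) encode the L-type pores of retina and skeletal muscle. *Cacna1f* had from 0 to 11 counts, with the highest values of 7 and 11 in the replicate 3 libraries, and *Cacna1s* had 1 count in control replicate 1 and 0 in the other 5 libraries. Neither passed the filter on low counts. Added to the L-type sum, they changed the mean L-type share of FPKM to 54.5% in control and 51.3% in *Thada*-activated cells.

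*Cacna1a*, the P/Q-type gene, held 114, 98 and 106 counts in control and 130, 117 and 116 in *Thada*-activated replicates. The conditions did not overlap in CPM, but they did in FPKM, where control replicate 1 was at 0.86 and *Thada*-activated replicate 3 at 0.84. The replicate 3 libraries did not stand apart. With a log2 fold change of 0.16 (standard error 0.16), the difference was as large as its error.

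The N-type gene *Cacna1b*, whose channel is best known at presynaptic terminals, held 661, 659 and 383 counts in control and 691, 675 and 441 in *Thada*-activated replicates. Replicate 3 was the lowest library of each condition, and the conditions overlapped. Over all 6 libraries the log2 fold change was 0.05 (standard error 0.28), and it was 0.01 (standard error 0.07) in replicates 1 and 2 alone.

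The R-type gene *Cacna1e* held 121, 131 and 60 counts in control and 141, 133 and 142 in *Thada*-activated replicates. The conditions did not overlap in CPM, but control replicates 1 and 2 lay close to the *Thada*-activated libraries, and control replicate 3 lay apart from all 5. Control replicate 3 set most of the log2 fold change of 0.38 (standard error 0.31), which was 0.10 (standard error 0.15) without it.

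Of the T-type genes, *Cacna1g* held 184, 190 and 359 counts in control and 207, 203 and 586 in *Thada*-activated replicates. The replicate 3 libraries were the highest of both conditions, and the conditions overlapped. The log2 fold change was 0.42 (standard error 0.51), 0.10 (standard error 0.12) in replicates 1 and 2 alone, and -0.28 (standard error 0.34) without *Thada*-activated replicate 3.

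*Cacna1h* held 254, 229 and 532 counts in control and 412, 399 and 817 in *Thada*-activated replicates. Replicate 3 was again the highest library of each condition, and since control replicate 3 was above *Thada*-activated replicates 1 and 2, the conditions overlapped. Within each replicate number the *Thada*-activated library was higher, at 1.58, 1.72 and 1.58 times the control library in CPM. The log2 fold change was 0.66 (standard error 0.43) without the block and 0.67 (standard error 0.08) with the replicate block, which is 1.59-fold. In replicates 1 and 2 alone it was 0.71 (standard error 0.10), as large as with replicate 3. Leaving out a single library moved the value without the block, to 0.24 without *Thada*-activated replicate 3 and to 1.13 without control replicate 3.

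*Cacna1i* held 94, 94 and 36 counts in control and 125, 139 and 34 in *Thada*-activated replicates. Both replicate 3 libraries were the lowest, the reverse of the other T-type genes. Within a replicate number the *Thada*-activated library was at 1.30, 1.46 and 0.97 times the control library in CPM, and the log2 fold change was 0.38 (standard error 0.61). The lowest value, 34 counts, has a 95% Poisson interval from 23.5 to 47.5 counts, which includes the 36 counts of control replicate 3. *Cacna1i* made up between 14.3% and 15.9% of the T-type FPKM in replicates 1 and 2 and 3.32% and 2.0% in replicate 3, while *Cacna1h* made up between 44.7% and 56.3% in all 6 libraries.

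Counted together, 0 of the 8 alpha-1 genes were called between conditions by edgeR without a block, at an adjusted p under 0.05 over all tested genes and a fold change over 1.5. The share of all 12516 tested genes called in this way was 0.00%, with 101 of them at an unadjusted p under 0.05 and 5 called by DESeq2. The targeted gene *Thada* was also not called in this way, so 0 calls without the block do not show that genes did not differ. With the replicate block, 1 of the 8 (*Cacna1h*, higher) was called, beside 0.152% of all tested genes (19 genes). Because the family was chosen with this contrast known, nothing is read from these counts.

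The direction within pairs was counted in the same way. *Thada*-activated CPM was higher in all 3 replicate numbers for 6 of the 8 genes (*Cacna1a*, *Cacna1b*, *Cacna1c*, *Cacna1e*, *Cacna1g* and *Cacna1h*), and for 20.7% of all tested genes. It was lower in all 3 for 0 of the 8 genes and for 12.2% of all tested genes. The CPM of the conditions did not overlap for 2 of the 8 (*Cacna1a* and *Cacna1e*) and for 5.43% of all tested genes. The median log2 fold change of the 8 genes was 0.28, beside -0.004 over all tested genes, and nothing is read from this difference since the contrast was known when the genes were chosen.

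**Figure D3:**
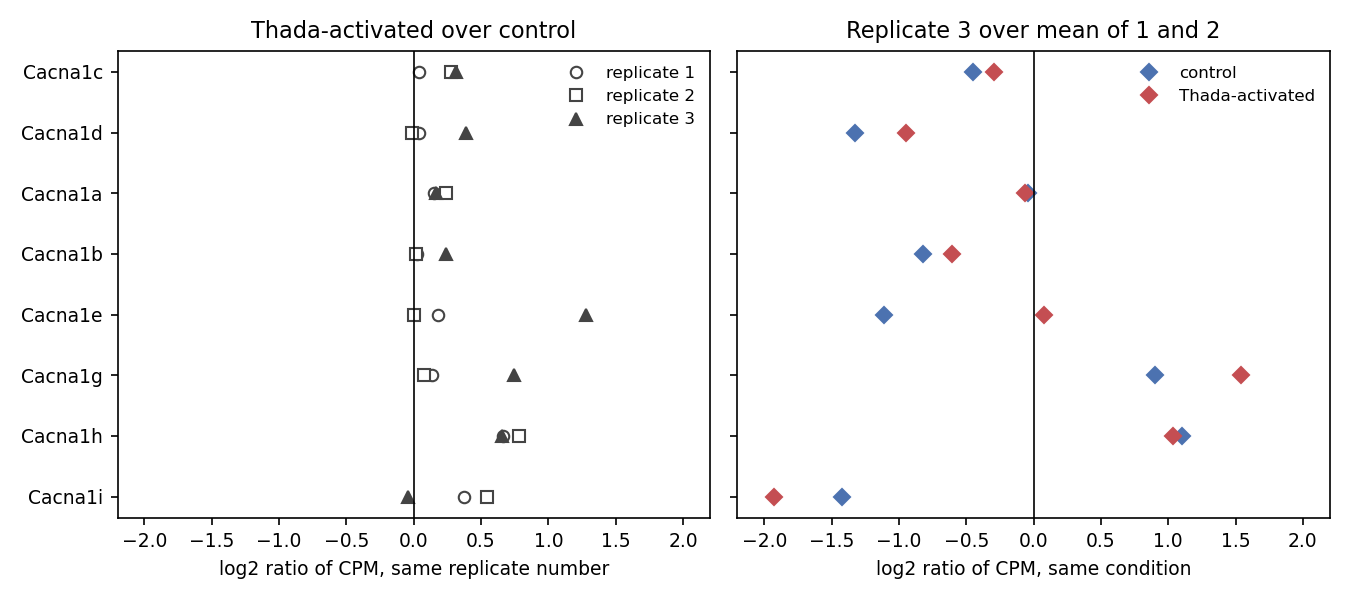
Log2 ratios of CPM for each alpha-1 subunit gene, of *Thada*-activated over control within each replicate number (left, 1 point per replicate number) and of replicate 3 over the mean of replicates 1 and 2 within each condition (right, 1 point per condition). *Cacna1h* is at 0.66, 0.78 and 0.66 on the left, and on the right *Cacna1g* and *Cacna1h* lie above 0 and *Cacna1a* (-0.04 and -0.06), *Cacna1b*, *Cacna1c*, *Cacna1d* and *Cacna1i* below 0 in both conditions.

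Replicate 3 was compared with the mean of replicates 1 and 2 within each condition. In CPM, *Cacna1h* was 2.14-fold higher in replicate 3 in control and 2.05-fold higher in *Thada*-activated cells, and *Cacna1g* was 1.87- and 2.91-fold higher. *Cacna1i* was 2.68- and 3.81-fold lower in control and *Thada*-activated replicate 3, *Cacna1d* was 2.51- and 1.93-fold lower and *Cacna1b* was 1.77- and 1.52-fold lower. *Cacna1c* was 1.36- and 1.22-fold lower, and *Cacna1a* differed by 1.03- and 1.04-fold. *Cacna1e* was 2.16-fold lower in control replicate 3 and 1.06-fold higher in *Thada*-activated replicate 3, so its conditions went different ways.

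Of the 8 genes, 2 (*Cacna1g* and *Cacna1h*) were over 1.5-fold higher in replicate 3 in both conditions, beside 12.9% of all tested genes, and 3 (*Cacna1b*, *Cacna1d* and *Cacna1i*) were over 1.5-fold lower in both, beside 12.0% of all tested genes. With library sizes that leave out the 20 genes with the most counts, or with FPKM, *Cacna1b* was not past 1.5-fold in *Thada*-activated cells, so that 2 genes were lower in both. This comparison of 1 library with 2 in each condition was not tested, since the split was known when the genes were chosen. The median log2 ratio over all tested genes was -0.01 in control and 0.03 in *Thada*-activated cells.

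Some β-cell markers also differed in replicate 3. Of the 11 tested β-cell markers, 4 (*Pdx1*, *Nkx2-2*, *Ucn3* and *Slc30a8*) were over 1.5-fold lower in replicate 3 in both conditions, beside 12.0% of all tested genes, and 1 (*Ins1*) was over 1.5-fold higher in both, beside 12.9% of all tested genes. *Ucn3*, a marker of mature β-cells, held 454, 463 and 181 counts in control and 670, 625 and 292 in *Thada*-activated replicates. *Pdx1*, a transcription factor of the islet, held 3970, 3514 and 1841 counts in control and 4064, 3866 and 1975 in *Thada*-activated replicates, so replicate 3 was the lowest library of each condition. Markers of other cells went different ways, with *Sst* 2.09- and 2.32-fold lower, *Cd68* 2.13- and 1.91-fold lower, *Krt19* 1.54- and 1.85-fold lower and *Col1a1* 2.37- and 2.53-fold higher in control and *Thada*-activated replicate 3. *Ppy* was 1.47- and 1.80-fold higher, *Irx2* 1.39- and 1.44-fold higher and *Gcg* 1.52- and 1.06-fold lower. *Cd68* held 7 to 22 counts. *Pecam1*, which did not pass the filter, was highest in replicate 3, with 6, 6 and 22 counts in control and 6, 8 and 19 in *Thada*-activated replicates. The part of these markers in the values of the channel genes was not tested.

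Of the accessory subunits, those of the α2δ and β kinds set the surface number and gating of the pore, while several γ subunits regulate AMPA receptors. All were described from a list of 16 genes, of which 15 had a row and 10 passed the filter. Of these 10, 0 were called higher and 0 lower between conditions, without the block and with it, beside 0.00% and 0.152% of all tested genes. Their median log2 fold change was -0.02, beside -0.004 over all tested genes.

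For the β subunits, which bind the pore from inside the cell, *Cacnb3* had the highest FPKM in each library except *Thada*-activated replicate 3, where *Cacnb1* was above it. *Cacnb3* was at 17.6, 16.5 and 22.7 FPKM in control and 20.4, 19.9 and 23.2 FPKM in *Thada*-activated replicates. *Cacnb1* was at 15.3, 15.3 and 22.3 FPKM in control and 15.3, 17.4 and 23.6 FPKM in *Thada*-activated replicates. Both genes were highest in replicate 3, and only *Cacnb3* was higher in the *Thada*-activated library of every replicate number, with a log2 fold change of 0.15 (standard error 0.15). *Cacnb2* lay between 5.39 and 6.45 FPKM and *Cacnb4* between 0.40 and 0.64 FPKM over the 6 libraries.

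The α2δ subunit gene *Cacna2d1* was at 14.8, 15.7 and 16.7 FPKM in control and 15.5, 15.5 and 19.2 FPKM in *Thada*-activated replicates. Its paralogues *Cacna2d2*, *Cacna2d3* and *Cacna2d4* had at most 17 counts and did not pass the filter. Of the γ subunit family, several of which regulate AMPA receptors, *Cacng7* was highest, at 47.4, 43.5 and 67.5 FPKM in control and 43.6, 44.8 and 59.6 FPKM in *Thada*-activated replicates. *Cacng3* lay between 10.2 and 12.4 FPKM, *Cacng4* between 8.50 and 11.5 FPKM, *Cacng2* between 0.97 and 1.89 FPKM and *Cacng5* between 0.14 and 0.45 FPKM. Replicate 3 was the highest library of both conditions for *Cacng7* and *Cacng5*, and *Cacng5* was the only tested accessory gene over 1.5-fold higher in both conditions, at 9 to 28 counts, while 0 were over 1.5-fold lower in both, beside 12.9% and 12.0% of all tested genes.

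Regulators of the channels and partners at the release site were taken from a list of 18 genes, of which 17 had a row and 15 passed the filter. Between conditions, 0 of the 15 were called higher and 0 lower, without the block and with it, beside 0.00% and 0.152% of all tested genes. Their median log2 fold change was 0.05, beside -0.004 over all tested genes. In replicate 3, 3 of the 15 were over 1.5-fold higher in both conditions, beside 12.9% of all tested genes, and 4 were over 1.5-fold lower in both, beside 12.0% of all tested genes. *Calm2* and *Calm3* encode calmodulin, which confers calcium-dependent feedback on the pore. *Calm2* lay between 301 and 338 FPKM and *Calm3* between 203 and 232 FPKM, with no library of replicate 3 apart from the rest.

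Further regulator genes past 1.5-fold in replicate 3 were chosen for mention once their values had been seen. *Gem*, which encodes a small GTPase that inhibits high-voltage-activated calcium channels, held 475, 459 and 1155 counts in control and 588, 549 and 1311 in *Thada*-activated replicates. *Stac2*, whose product binds L-type channels, held 384, 407 and 1753 counts in control and 462, 471 and 1815 in *Thada*-activated replicates. Both were highest in the replicate 3 libraries, and *Rrad*, a GTPase related to *Gem*, was so too, at 27 to 61 counts. *Rimbp2*, *Unc13a* and *Nalcn*, which encode an active-zone protein, a priming factor and a sodium leak channel, were 1.73- and 1.60-fold, 2.28- and 1.71-fold and 2.54- and 1.64-fold lower in CPM in control and *Thada*-activated replicate 3.

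Voltage-gated sodium channels, which share the architecture of the calcium channels, were taken from a list of 13 genes, of which 10 had a row and 7 passed the filter. Between conditions, 0 of the 7 were called higher and 0 lower, without the block and with it, beside 0.00% and 0.152% of all tested genes. Their median log2 fold change was -0.10, beside -0.004 over all tested genes. Of the pore-forming genes of this list, *Scn1a* lay between 4.17 and 5.26 FPKM and *Scn3a* between 2.36 and 4.26 FPKM, with the lowest *Scn3a* values in replicate 3. In replicate 3, 0 of the 7 were over 1.5-fold higher and 0 over 1.5-fold lower in both conditions, beside 12.9% and 12.0% of all tested genes.

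Similar genes were sought among 9738 tested genes with a mean of at least 10 CPM. The alpha-1 genes *Cacna1a*, *Cacna1e* and *Cacna1i* lay below that mean and were left out. The genes most like each remaining alpha-1 gene were found by Pearson's r of log2(CPM + 0.5) over the 6 libraries. For *Cacna1b* these were *Pitpna*, *Th* and *Syt13*, and for *Cacna1d* they were *Stag1*, *Clcn4* and *Cacna1b* itself. For *Cacna1c* they were *Nsmf*, *Camk1g* and *Yars2*, for *Cacna1g* *Myo18a*, *Robo1* and *Bcl2l13*, and for *Cacna1h* *Cish*, *Cdkn2c* and *Atp5g2*. The r of these 15 pairs was between 0.994 and 1.00. All rest on the same 6 libraries, in which replicate 3 of both conditions lay apart. How far these pairs describe that split, or the conditions, was not tested.

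Upstream sequences are shown for the genes that were over 1.5-fold lower in CPM in replicate 3 in both conditions. *Cacna1c*, at 1.36- and 1.22-fold lower, did not pass this cut and is not shown. The group was set by these values, so nothing is read from its make-up. RefSeq (GRCm38.p6) gave a window for 5 of the 8 alpha-1 genes, and those of *Cacna1b*, *Cacna1d* and *Cacna1i* are the 250 bases before a transcription start. *Cacna1d* has 2 such starts, and the window of the downstream one is shown, since the other overlaps an annotated exon. Which start MIN6 cells use was not measured here. Capitals mark the GC box GGGCGG and the E-box CAGATG on either strand.
Cacna1b, chr2:24763153-24763402, minus strand: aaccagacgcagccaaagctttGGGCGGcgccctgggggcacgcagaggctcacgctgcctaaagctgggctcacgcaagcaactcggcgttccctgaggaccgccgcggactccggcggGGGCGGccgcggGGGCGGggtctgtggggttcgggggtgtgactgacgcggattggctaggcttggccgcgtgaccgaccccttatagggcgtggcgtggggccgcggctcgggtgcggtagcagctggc
Cacna1d, chr14:30353487-30353736, minus strand: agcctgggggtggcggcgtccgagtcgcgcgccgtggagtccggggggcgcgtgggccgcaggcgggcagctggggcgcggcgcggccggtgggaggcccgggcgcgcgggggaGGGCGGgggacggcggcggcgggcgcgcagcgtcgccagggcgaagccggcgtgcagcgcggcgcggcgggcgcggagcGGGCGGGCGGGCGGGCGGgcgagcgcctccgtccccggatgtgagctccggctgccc
Cacna1i, chr15:80286988-80287237, plus strand: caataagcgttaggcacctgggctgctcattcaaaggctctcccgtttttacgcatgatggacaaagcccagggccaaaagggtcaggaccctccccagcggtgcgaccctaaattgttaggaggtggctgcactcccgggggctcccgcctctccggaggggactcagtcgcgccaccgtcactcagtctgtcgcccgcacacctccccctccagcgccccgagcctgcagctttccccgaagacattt

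The GC box occurred 3 times in the *Cacna1b* window, 5 times in the *Cacna1d* window shown, with overlaps, and 0 times in that of *Cacna1i*. The other *Cacna1d* window, chr14:30491157-30491406, held 0 GC boxes, and G and C made up 39.6% of it. Over all 32851 windows of this length, 32.7% held a GC box and 14.4% held the E-box, which occurred in none of the windows shown. G and C made up 72% of the *Cacna1b*, 86.4% of the shown *Cacna1d* and 62.4% of the *Cacna1i* window, against a median of 52.4% over all windows. These matches describe letters in the windows, and binding was not measured here.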

How the data were processed

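RNA from 3 control and 3 *Thada*-activated MIN6 libraries was sequenced by the authors on the BGISEQ-500 platform. The submitters' processing notes name Bowtie2, RSEM, DESeq2 and GRCm38, without versions. The deposited estimated counts (expected counts) of each gene, not normalized by the authors, were the input of every count test and were rounded to whole numbers first. The deposited FPKM values, scaled by the authors for gene length and library size, were used for levels and shares. The authors' TPM values, averages and DESeq2 comparison columns (fold changes, p-values) were not used. In the table, 1 broken line fragment was left out.

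In R 4.3.3, edgeR 4.0.16 was run on genes passing filterByExpr, with TMM factors and a robust quasi-likelihood test of condition, and Benjamini-Hochberg adjustment over all tested genes. A gene was called at an adjusted p under 0.05 and a fold change over 1.5. The standard error of an edgeR log2 fold change was derived from the F statistic of this test, so it holds no information beyond the test. The fit was first run on simulated data, and the outcome is not used as support here. DESeq2 1.42.0 and limma 3.58.1 were alternatives. Channel types, members and gene lists were chosen with earlier results of these data known. Named genes were the alpha-1 genes, *Thada*, tested accessory subunits, called regulators and sodium channels or otherwise the 3 with the highest mean CPM, and the 3 closest correlates of each alpha-1 gene with a mean of at least 10 CPM. Some genes under this rule are not reported here.

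Deviations from the condition means correlated between same-numbered libraries at 0.746, 0.741 and 0.895 for replicates 1, 2 and 3 (across genes), so the replicate number was used as a block. Replicates 1 and 2 crossed at 0.769 and 0.771, so the pairing separates replicate 3 but not replicates 1 and 2. No pair of libraries of 1 condition had counts that agreed within sampling noise.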

Additional observations from a re-analysis of the deposited data

How the results depend on the processing

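Without the replicate block, edgeR called 0 genes with DESeq2 size factors, without a filter, with at least 10 counts in every library, with library sizes without the top 20 genes and without each library in turn, and limma called 0 on both FPKM scales. *Thada*, at a log2 fold change of 1.13 without the block, was thus not called in any of these fits. A count of 0 in them therefore does not show that genes did not differ. DESeq2 called 5, with *Thada* among them and none of them an alpha-1 gene. The replicate block gave 19 called genes, among them *Thada*, and 1 called alpha-1 gene, *Cacna1h*, and changed no other call among the alpha-1, accessory, regulator and sodium channel genes. Other fits were chosen after seeing the data. The block with DESeq2 size factors gave 19, with the DESeq2 Wald test 20 and with library sizes without the top 20 genes 22. The block without both libraries of replicate 1, 2 or 3 gave 43, 18 and 70, and replicates 1 and 2 alone without a block gave 68. *Cacna1h* was the 1 alpha-1 gene called in each of these 7 fits. All use the counts with which the genes were chosen, so nothing is read from this. Accessory subunit and regulator genes called stayed at 0 in all 21 alternatives.

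The log2 fold changes of *Cacna1a*, *Cacna1c*, *Cacna1e*, *Cacna1h*, *Cacna1i* and *Thada* kept their direction in all 21 alternatives. Others changed sign when a single library was left out, with ranges from -0.17 to 0.24 for *Cacna1b*, -0.25 to 0.32 for *Cacna1d*, -0.28 to 0.79 for *Cacna1g*, -0.022 to 0.15 for *Cacna2d1*, -0.13 to 0.26 for *Cacnb1*, -0.088 to 0.030 for *Cacnb2*, -0.29 to 0.042 for *Cacnb4*, -0.073 to 0.068 for *Cacng3*, -0.61 to 0.35 for *Cacng5*, -0.27 to 0.10 for *Cacng7*, -0.089 to 0.071 for *Scn1a* and -0.13 to 0.23 for *Scn3a*. Values that kept their direction ranged from 0.083 to 0.23 for *Cacna1a*, 0.051 without control replicate 3 to 0.29 without control replicate 1 for *Cacna1c*, 0.084 to 0.65 for *Cacna1e*, 0.043 without control replicate 3 to 0.79 without *Thada*-activated replicate 3 for *Cacna1i* and 0.059 without control replicate 2 to 0.30 without control replicate 3 for *Cacnb3*. For *Cacna1h* the range was 0.24 without *Thada*-activated replicate 3 to 1.13 without control replicate 3. Sign changes in other fits were at 0.0027 and 0.0035 for *Cacnb2* by limma on log2(FPKM + 1) and log2(FPKM + 0.1), and at 0.0063, 0.053 and 0.087 for *Cacnb2*, *Cacnb4* and *Cacng3* in the block without both replicate 1 libraries. With replicates 1 and 2 alone, *Scn1a* was at -0.041 without and -0.041 with the block, and *Scn3a* at -0.015 without and -0.015 with it. The cause was not tested.

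Within replicate numbers (the replicate block), the mean difference in share was 4.67 ± 0.65 points (SD, n = 3) for T-type and -3.17 ± 0.47 for L-type. Unpaired, the T-type difference ranged from -3.00 points without *Thada*-activated replicate 3 to 12.0 without control replicate 3, and was 4.31 in replicates 1 and 2 alone. The L-type difference ranged from -9.27 points without control replicate 3 to 3.11 without *Thada*-activated replicate 3. Shares of uncorrected counts gave 2.98% and 2.83% P/Q-type and 2.80% and 3.25% R-type in control and *Thada*-activated cells. Counts per kilobase of annotated exons gave 20.5% and 18.5% N-type and 1.47% and 1.69% R-type, and 3.24% P/Q-type in *Thada*-activated cells, because the exon lengths differ from those behind the FPKM. With these exon lengths, the T-type level was above the L-type level in control replicate 3 too. The mean log2 ratio of replicate 3 to replicates 1 and 2 moved for *Cacna1a*, to -0.018 without the top 20 genes, -0.10 in FPKM, -0.13 against replicate 1 alone and 0.035 against replicate 2 alone. The lowest counts were those of *Cacna1i* (34) and *Cacna1e* (60). How far depth limits the difference of each gene was not compared.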
